A study of Mus musculus with 11 samples.

Results

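The genes described here are the mouse major histocompatibility complex (MHC) genes and the genes that supply them with peptides, taken as every row whose symbol starts with H2- (45 rows) or is 1 of 14 named antigen processing genes (15 rows, since Psme2 has 2). These 60 rows are among 52143 genes in the table. Membership asked for no minimum level. RNA came from RAW cells, a mouse macrophage-type line. The groups were cells with a hairpin against GIV (shGIV) after 5 h of LPS at 100 ng/ml (3 libraries), cells with a control hairpin (shC) after the same LPS treatment (1 library, replicate 2), shGIV cells without LPS (3 libraries) and shC cells without LPS (2 libraries, replicates 1 and 3). GIV, or Girdin, is the product of Ccdc88a and modulates trimeric G proteins, and LPS is the bacterial lipopolysaccharide that Toll-like receptor 4 senses. Every group carries a hairpin, and the labels name neither the number of clones nor whether replicates were separate cultures, so p-values measure only the spread between these samples.

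MHC class I molecules show peptides from inside the cell to CD8 T cells on almost all nucleated cells. Proteasomes cut proteins into peptides, the TAP transporter carries these into the endoplasmic reticulum, ERAP1 trims them, and tapasin helps to load them onto a heavy chain paired with beta-2 microglobulin. Class II molecules show peptides from engulfed material to CD4 T cells and are made by professional antigen-presenting cells, macrophages among them, above all after interferon gamma. The transactivator NLRC5 drives class I genes and CIITA drives class II genes.

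After LPS 28 of 29 tested class I side genes rose in shGIV cells, with H2-M3 lower, and 27 rose in shC cells (limma, where 15.8% and 14.8% of all genes tested were higher). They ran from the transactivator Nlrc5 through the inducible proteasome subunits and peptide transporter to the heavy chains, while the class II chains and Ciita stayed close to absent. The summed level of all 60 rows was 9685, 9582 and 9566 TPM in shGIV cells with LPS and 9309.9 TPM in the shC library with LPS, against 4339, 4278 and 4211 TPM in shGIV cells and 4131 and 4495 TPM in shC cells without LPS. Differences between shGIV and shC cells were small beside this: only H2-M2, a low class Ib gene, passed the test, lower in shGIV cells with LPS, where 5.27% of all genes were called. This call rests on 1 shC library and was lost with the set number as a replicate block (adjusted p = 0.0850), with quantile normalization (0.0507) and in a fit of only the 2 groups compared (0.0754).

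Promoter sequences are shown for 7 members whose responses stand for the different patterns below: classical heavy chains, the light chain, the transporter, a class Ib gene that rose strongly, a class Ib gene that fell in shGIV cells with LPS, and the gene that differed between the lines. Each runs 5′ to 3′ from 250 bases before to 50 bases after the start site in RefSeq (GRCm38.p6), and capitals mark matches on either strand to an interferon-stimulated response element (ISRE, which is GAAA, any 2 bases and GAAA), a gamma-activated site (TTCNNNGAA), an NF-kB motif (the longer is GGGA, any base and TTTCC, the shorter GGGANTNCC) or a CCAAT box (CCAAT).
H2-K1 (chr17:34000284-34000583, minus strand): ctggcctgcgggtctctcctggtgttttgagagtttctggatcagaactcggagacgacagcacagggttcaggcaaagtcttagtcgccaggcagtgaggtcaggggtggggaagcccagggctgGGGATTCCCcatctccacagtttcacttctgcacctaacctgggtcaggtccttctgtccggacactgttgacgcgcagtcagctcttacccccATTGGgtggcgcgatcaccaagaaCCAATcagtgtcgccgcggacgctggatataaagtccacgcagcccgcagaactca
H2-D1 (chr17:35262844-35263143, plus strand): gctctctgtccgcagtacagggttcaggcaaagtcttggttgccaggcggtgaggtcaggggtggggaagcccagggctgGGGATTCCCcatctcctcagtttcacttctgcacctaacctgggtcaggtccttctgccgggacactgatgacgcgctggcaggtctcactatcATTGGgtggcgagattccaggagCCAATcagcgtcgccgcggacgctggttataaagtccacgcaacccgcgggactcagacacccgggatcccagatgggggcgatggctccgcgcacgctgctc
B2m (chr2:122147437-122147736, plus strand): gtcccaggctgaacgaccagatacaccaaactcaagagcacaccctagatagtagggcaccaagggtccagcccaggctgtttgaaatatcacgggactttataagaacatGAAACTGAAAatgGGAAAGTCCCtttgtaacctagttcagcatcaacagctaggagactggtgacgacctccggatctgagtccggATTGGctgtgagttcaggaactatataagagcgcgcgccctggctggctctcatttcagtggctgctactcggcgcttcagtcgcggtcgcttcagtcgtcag
Tap1 (chr17:34187306-34187605, plus strand): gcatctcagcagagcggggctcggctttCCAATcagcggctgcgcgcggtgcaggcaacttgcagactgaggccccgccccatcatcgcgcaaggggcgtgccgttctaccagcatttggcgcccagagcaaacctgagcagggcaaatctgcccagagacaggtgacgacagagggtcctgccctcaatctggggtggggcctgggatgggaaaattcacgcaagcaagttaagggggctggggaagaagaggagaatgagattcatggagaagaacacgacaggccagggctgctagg
H2-T22 (chr17:36042693-36042992, minus strand): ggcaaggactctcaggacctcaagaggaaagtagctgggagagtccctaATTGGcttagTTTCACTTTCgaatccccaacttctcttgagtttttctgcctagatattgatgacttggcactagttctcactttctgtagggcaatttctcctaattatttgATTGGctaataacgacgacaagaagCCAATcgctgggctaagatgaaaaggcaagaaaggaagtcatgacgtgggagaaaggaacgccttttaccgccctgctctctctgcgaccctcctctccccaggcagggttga
H2-M3 (chr17:37269984-37270283, plus strand): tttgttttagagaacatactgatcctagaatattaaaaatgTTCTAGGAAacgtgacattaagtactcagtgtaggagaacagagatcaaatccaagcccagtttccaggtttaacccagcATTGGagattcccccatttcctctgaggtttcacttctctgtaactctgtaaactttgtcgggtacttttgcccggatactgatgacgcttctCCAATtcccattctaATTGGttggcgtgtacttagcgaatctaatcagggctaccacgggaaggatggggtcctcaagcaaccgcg
H2-M2 (chr17:37483505-37483804, minus strand): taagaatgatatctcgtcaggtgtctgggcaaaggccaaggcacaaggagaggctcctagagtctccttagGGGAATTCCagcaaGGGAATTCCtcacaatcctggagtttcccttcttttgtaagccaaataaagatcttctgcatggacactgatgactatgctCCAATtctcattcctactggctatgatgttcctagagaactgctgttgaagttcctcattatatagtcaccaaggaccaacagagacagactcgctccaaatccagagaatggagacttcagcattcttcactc

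The H2-K1 and H2-D1 windows both hold GGGATTCCC, with its first base 124 and 170 bases before the start site, and below it 1 CCAAT box on each strand. B2m has an ISRE (GAAACTGAAA) followed closely by an NF-kB match (GGAAAGTCCC), with their first bases 139 and 126 bases before the start. H2-T22 has an ISRE and H2-M2 has the NF-kB letters GGGAATTCC at 2 places. The Tap1 window is also the Psmb9 promoter read from the other strand: the 2 start sites in RefSeq lie 226 bases apart, the genes point away from each other, and their windows share 275 bases. Of 41 members with a window, 33 (80.5%) hold a CCAAT box, against 41.1% of 27025 genes in the RefSeq table, 7 (17.1%) the shorter NF-kB motif, against 4.57%, 5 (12.2%) the ISRE, against 3.99%, 4 (9.76%) the gamma-activated site, against 9.55%, and 1 (B2m) the longer NF-kB motif, against 0.466%. The genes with an exact match to the ISRE letters are B2m, Erap1, H2-T22, H2-T23 and Psme1. Looser forms of the element were not searched, so a window without a match, as for H2-K1 and H2-D1, may still hold such a form. The ISRE was in 5 of 20 members that rose with LPS in shGIV cells, 0 of 5 that fell and 0 of 16 that were low in every group. The shorter NF-kB motif was in 6 of 20, 0 of 5 and 1 of 16, and the longer in 1 of 20, 0 of 5 and 0 of 16. The gamma-activated site was in 1 of 20, 2 of 5 and 1 of 16, and the CCAAT box in 14 of 20, 5 of 5 and 14 of 16. These splits were not tested. These matches describe letters in a window and not bound sites, and sequence neighbours such as the H2-M10 genes are copies of each other. No window was at hand for Cd74, H2-Bl, H2-K2, H2-Q1, H2-Q5, H2-T10, H2-T24, Nlrc5, Tap2 and Tapbpl.

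The deposited values are log2(TPM + 1) per gene. TPM are transcript abundances scaled by length, so levels of different genes can be compared. Their total is fixed at 1000000, which leaves the read depth behind each value unknown. Replicate 2 of the shC cells without LPS is left out by the rule that defines this gene set: coding transcripts made up 7.81% of it, and 74.1% to 81.7% of each library that was used. Replicate 3 of the shC cells with LPS is not analysed here. Ccdc88a was at 2.62 to 3.39 TPM (shGIV) and 5.77 TPM (shC) with LPS, against 5.31 to 6.93 TPM (shGIV) and 7.69 and 10.0 TPM (shC) without. Of 8 macrophage markers 7 reached 1 TPM, led by Lyz2, Cd14 and Cd68, while Mertk stayed at or under 0.0700 TPM. Markers of dendritic cells reached it in 1 of 6 (Xcr1), of B cells in 1 of 5 (Pax5), and of T or NK cells and of fibroblasts or epithelium in none, with Cd209a, Ncr1 and Klrb1c at 0 in all 9 libraries. The summed dendritic cell markers were at 4.34 to 4.52 TPM (shGIV) and 2.57 TPM (shC) with LPS, against 0.860 to 1.44 TPM (shGIV) and 0.766 to 1.15 TPM (shC) without. The summed B cell markers were at 0.726 to 0.955 TPM (shGIV) and 1.30 TPM (shC) with LPS, against 0.182 to 0.352 TPM (shGIV) and 0.235 to 0.445 TPM (shC) without. Both sums were thus higher in every library with LPS, but each was carried by 1 gene. Xcr1 was at 2.09 to 4.23 TPM with LPS and at most 0.119 TPM without, and Pax5 at 0.628 to 1.13 TPM and at most 0.00569 TPM. The dendritic cell marker Zbtb46 was lower in every library with LPS, and the B cell marker Cd79a was lower with LPS within each line. The summed macrophage markers ran from 11786 to 12341 TPM (shGIV) and 14165 TPM (shC) with LPS, against 17686 to 18246 TPM (shGIV) and 18921 to 19322 TPM (shC) without. Most of this sum was Lyz2, at 7974 to 9538 TPM with LPS and 14648 to 15913 TPM without. Csf1r and Cd68 were also lower in every library with LPS, whereas Adgre1, Cd14, Itgam and Fcgr1 were higher in each. The part of all these markers in the results was not tested. In such bulk samples fewer cells of a type and less RNA per cell cannot be told apart.

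Of the 60 rows 35 passed the filter for the test (at least 1 TPM in at least 2 libraries), and these are the 35 rows whose mean log2(TPM + 1) reached 1 in some group. All 35 also pass on the libraries without LPS alone, so none was let in by a rise with LPS. On the libraries with LPS alone 33 pass. H2-DMb1 and H2-DMb2 do not pass there and were let in through their higher levels without LPS, which bears on their falls given below. H2-DMb1 also passed only through the shC libraries. The other 25 rows stayed at or under 0.375 TPM in every library, and 12 of them were at 0 throughout. The low rows are 14 class Ib genes (the H2-M10 family, H2-M1, H2-M5, H2-M9, H2-M11, H2-T3, H2-Q3 and H2-M6-ps, up to 0.142 TPM), all 5 class II chains, H2-Oa and H2-Ob, Ciita, the pseudogenes H2-Pa and H2-Pb and the second Psme2 row.

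**Figure D1:**
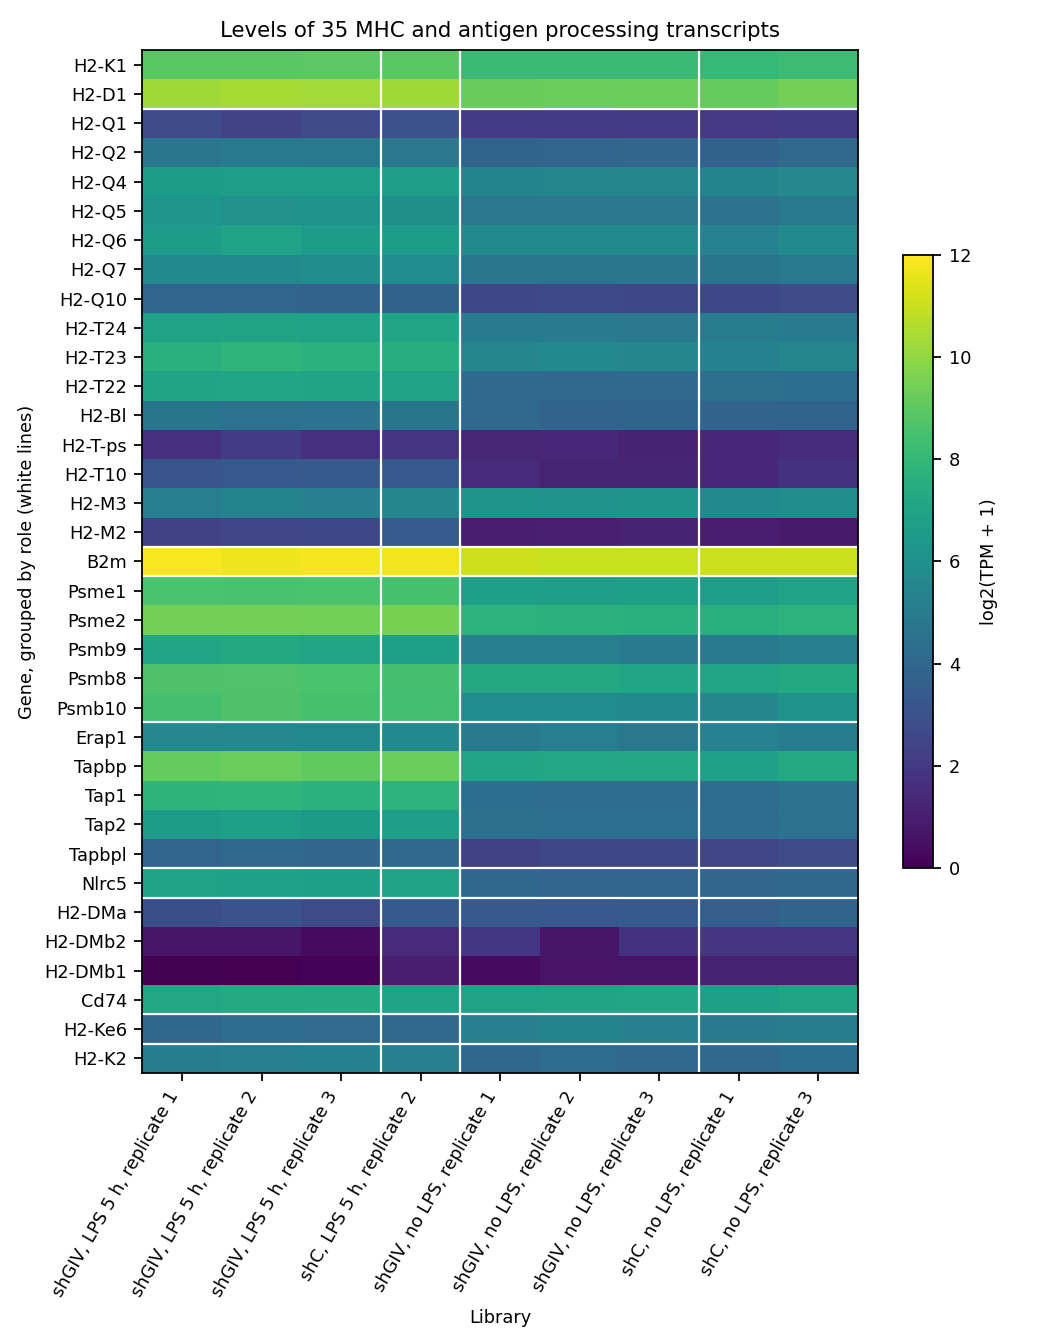
Level of each of the 35 genes (rows, grouped by role) as log2(TPM + 1) in each of the 9 libraries (columns, grouped by line and LPS). Most rows are brighter in the 4 libraries with LPS than in the 5 without, while H2-M3, H2-Ke6 and the H2-DM genes are darker or alike.

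In shGIV cells LPS raised 30 of the 35 tested members and lowered 5 (limma, adjusted p under 0.05 over 13711 genes), where 15.8% of all genes tested were higher and 59.7% lower. In shC cells 28 rose and 1 fell, against 14.8% and 44.1% of all genes. The median change of the 35 was 1.20 log2 units in shGIV cells and 1.07 in shC cells, and that of all genes tested was -0.54 and -0.40. Called in either direction were 75.5% and 58.9% of all genes. How many of all genes had libraries with and without LPS that did not overlap was not counted. Where such separation is given below, it describes the gene and does not set it apart from other genes. With LPS the shC cells have 1 library, whose spread is taken from the other groups. With TMM scaling, which brings the median of all genes to -0.06 and -0.02, 30 members rose and 2 fell in shGIV cells and 30 rose and 1 fell in shC cells, while with all 10 libraries 7 members passed in shGIV cells and 3 in shC cells, each of them higher.

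**Figure D2:**
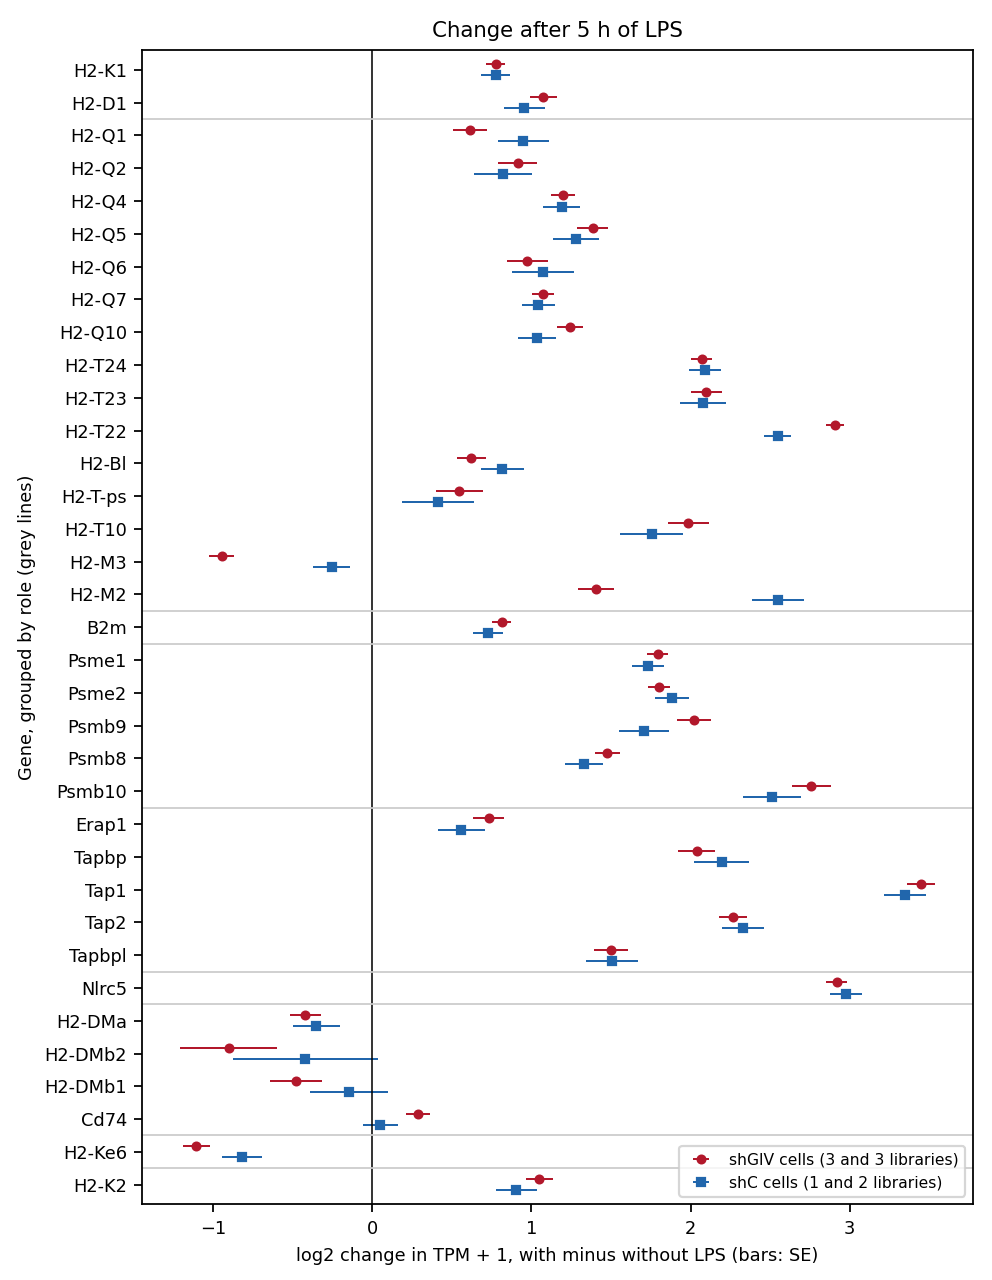
Log2 change in TPM + 1 after 5 h of LPS for the 35 genes, in shGIV cells (circles) and shC cells (squares), with standard errors from limma. Tap1 and Nlrc5 lie farthest to the right in both lines, and H2-M3, H2-Ke6 and the H2-DM genes lie left of 0.

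Nlrc5 (ENSMUSG00000074151, GRCm38 chromosome 8, 94434356 to 94527272, plus strand) encodes the transactivator of class I genes. Nlrc5 reached 123, 116 and 111 TPM (shGIV) and 123 TPM (shC) with LPS, against 15.7, 14.1 and 14.0 TPM (shGIV) and 14.6 and 14.9 TPM (shC) without. Every library with LPS lay far above every library without, a log2 change of 2.92 ± 0.07 (SE, limma adjusted p = 1.64e-08) in shGIV cells and 2.98 ± 0.10 (adjusted p = 3.7e-07) in shC cells. The lines were close to each other at both times, with a shGIV minus shC difference of -0.08 with LPS (95% interval -0.29 to 0.14) and -0.02 without (-0.19 to 0.15). Ciita, the class II transactivator, was at 0.104 TPM at most in any library.

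The heavy chains pair with peptide and beta-2 microglobulin, and the classical ones, H2-K and H2-D, are those that most CD8 T cells see. H2-K1 was at 484, 494 and 511 TPM (shGIV) and 479 TPM (shC) with LPS, against 285, 291 and 291 TPM (shGIV) and 260.2 and 300.0 TPM (shC) without. H2-D1 was at 1261, 1327 and 1272 TPM (shGIV) and 1231 TPM (shC) with LPS, against 590.1, 626 and 616 TPM (shGIV) and 565 and 712 TPM (shC) without. The libraries with LPS did not overlap those without for either gene, and H2-D1 was above H2-K1 in every library. H2-K1 (ENSMUSG00000061232, GRCm38 chromosome 17, 33996017 to 34000347, minus strand) changed by 0.78 ± 0.06 in shGIV cells and 0.78 ± 0.09 in shC cells, and H2-D1 (ENSMUSG00000073411, GRCm38 chromosome 17, 35262730 to 35267499, plus strand) by 1.07 ± 0.08 in shGIV cells and 0.96 ± 0.13 in shC cells. Each of these rises passed the test (largest limma adjusted p = 0.000412). B2m was at 3802, 3365 and 3678 TPM (shGIV) and 3480.4 TPM (shC) with LPS, against 2139.9, 2016 and 2014 TPM (shGIV) and 2125 and 2079 TPM (shC) without, so that the light chain was the most abundant transcript of the 60 rows in every one of the 9 libraries. B2m (ENSMUSG00000060802, GRCm38 chromosome 2, 122147686 to 122153083, plus strand) changed by 0.81 ± 0.06 in shGIV cells and 0.73 ± 0.09 in shC cells, and its levels with LPS lay above all levels without.

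Heavy chain levels summed over the classical and class Ib rows are touched less than single rows by how reads were divided among near copies. This sum was 2629.6, 2788 and 2675 TPM in shGIV cells with LPS and 2605 TPM in the shC library with LPS, against 1228, 1274 and 1257 TPM in shGIV cells and 1133 and 1371 TPM in shC cells without LPS. B2m stood at 1.21 to 1.45 (shGIV) and 1.34 (shC) times the heavy chain sum with LPS, and at 1.58 to 1.74 (shGIV) and 1.52 and 1.88 (shC) times it without. H2-K1 and H2-D1 together made up 65.3% to 66.7% (shGIV) and 65.6% (shC) of the sum with LPS, and 71.3% to 72.2% (shGIV) and 72.8% and 73.8% (shC) without. The share held by class Ib rows was thus larger in each library with LPS than in each without. Unlike the sum, this share depends on how reads were divided among near copies, and that part was not tested.

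Class Ib heavy chains are less variable relatives with specialised roles, and 15 of their 29 rows were tested. LPS raised 14 of these in shGIV cells, with H2-M3 lower, and 13 in shC cells, with none lower. Their median change was 1.20 and 1.07 log2 units. Higher among all genes were 15.8% (shGIV) and 14.8% (shC), and 59.7% and 44.1% were lower. H2-T22 and H2-T10 are known for ligands of some gamma delta T cell receptors, and H2-T10 is annotated here as a polymorphic pseudogene. H2-T22 was at 126, 139 and 127 TPM (shGIV) and 121 TPM (shC) with LPS, against 16.2, 16.6 and 16.6 TPM (shGIV) and 20.2 and 19.4 TPM (shC) without. The change was 2.91 ± 0.06 in shGIV cells and 2.55 ± 0.08 in shC cells, the largest of the class Ib rows in shGIV cells (limma adjusted p = 8.61e-09). H2-T10 was at 7.93, 8.83 and 9.62 TPM (shGIV) and 8.88 TPM (shC) with LPS, against 1.70, 1.37 and 1.34 TPM (shGIV) and 1.57 and 2.34 TPM (shC) without, at a far lower level than H2-T22 in every library. H2-T23 encodes Qa-1, which shows leader peptides of other class I chains to NK cell receptors. H2-T23 was at 195, 230.2 and 199.7 TPM (shGIV) and 178 TPM (shC) with LPS, against 46.6, 50.7 and 46.0 TPM (shGIV) and 37.2 and 46.0 TPM (shC) without. It changed by 2.10 ± 0.10 in shGIV cells and 2.08 ± 0.15 in shC cells. H2-T24 was at 125, 129 and 122 TPM (shGIV) and 137 TPM (shC) with LPS, against 30.5, 30.4 and 26.5 TPM (shGIV) and 32.4 and 30.6 TPM (shC) without, a change of 2.07 ± 0.07 in shGIV cells and 2.09 ± 0.10 in shC cells. For these 4 genes the libraries with and without LPS did not overlap.

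The H2-Q genes include those of Qa-2, a class Ib molecule that can be anchored to the membrane by lipid. H2-Q4 was at 95.3, 106 and 100.4 TPM (shGIV) and 106 TPM (shC) with LPS, against 41.0, 44.0 and 44.7 TPM (shGIV) and 42.3 and 49.8 TPM (shC) without. H2-Q6 was at 94.0, 119 and 94.2 TPM (shGIV) and 97.7 TPM (shC) with LPS, against 50.5, 53.3 and 50.0 TPM (shGIV) and 39.5 and 53.4 TPM (shC) without. H2-Q7 was at 51.6, 52.2 and 57.7 TPM (shGIV) and 55.2 TPM (shC) with LPS, against 24.9, 25.0 and 25.3 TPM (shGIV) and 24.6 and 28.00 TPM (shC) without. All 3 were higher in every library with LPS than in every library without, by 1.20, 0.97 and 1.07 log2 units in shGIV cells and by 1.19, 1.07 and 1.04 in shC cells. H2-Q5 was at 78.9, 65.3 and 69.1 TPM (shGIV) and 62.8 TPM (shC) with LPS, against 27.0, 25.9 and 26.8 TPM (shGIV) and 22.8 and 28.03 TPM (shC) without, although it is annotated as a polymorphic pseudogene. H2-Q2 was at 25.1, 30.03 and 27.7 TPM (shGIV) and 26.0 TPM (shC) with LPS, against 13.6, 14.1 and 14.7 TPM (shGIV) and 12.1 and 16.9 TPM (shC) without. H2-Q1 was at 5.96, 4.52 and 5.72 TPM (shGIV) and 7.08 TPM (shC) with LPS, against 3.21, 3.16 and 3.09 TPM (shGIV) and 3.04 and 3.34 TPM (shC) without. Their changes were 1.39, 0.91 and 0.61 in shGIV cells and 1.28, 0.82 and 0.95 in shC cells, and each passed the test. H2-Q10 in mice is known mainly as a secreted protein of the liver. H2-Q10 was at 14.3, 14.0 and 12.8 TPM (shGIV) and 12.1 TPM (shC) with LPS, against 5.16, 5.46 and 5.04 TPM (shGIV) and 5.02 and 5.80 TPM (shC) without, a change of 1.24 ± 0.08 in shGIV cells and 1.04 ± 0.12 in shC cells. H2-Bl was at 24.2, 21.2 and 22.7 TPM (shGIV) and 24.5 TPM (shC) with LPS, against 16.3, 13.1 and 13.8 TPM (shGIV) and 13.2 and 13.7 TPM (shC) without, a change of 0.62 ± 0.09 in shGIV cells and 0.82 ± 0.14 in shC cells. H2-Bl is annotated as a polymorphic pseudogene and H2-K2 as a transcribed pseudogene. H2-K2 was at 32.6, 36.3 and 37.8 TPM (shGIV) and 34.2 TPM (shC) with LPS, against 15.4, 18.0 and 16.5 TPM (shGIV) and 16.7 and 18.9 TPM (shC) without, a change of 1.05 ± 0.09 in shGIV cells and 0.91 ± 0.13 in shC cells. The pseudogene H2-T-ps stayed low, at 2.16 to 3.19 TPM (shGIV) and 2.59 TPM (shC) with LPS and 1.18 to 1.57 TPM (shGIV) and 1.53 and 1.88 TPM (shC) without, and passed the test in shGIV cells at 0.55 but not in shC cells at 0.41, where it passed at 0.71 with TMM scaling (adjusted p = 0.0284) and at 0.83 with quantile normalization (adjusted p = 0.0170).

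Sequence sharing limits what single heavy chain rows can show. A transcript-level method assigns reads through short sequence words, and in the GENCODE M21 transcripts only 32.6% of the distinct 31-base words of H2-T22 and 35.8% of those of H2-T10 occur in no other gene, since these genes share 47.2% and 47.6% of their words with each other. The figure was 42.2% for H2-Q5, 47.0% for H2-Q4, 48.2% for H2-Q6, 60.8% for H2-Q7 and 69.7% for H2-Q10, and 77.2% and 73.1% for H2-K1 and H2-D1. H2-M2 (96.8%), H2-M3 (95.4%) and H2-T24 (93.4%) are the most distinct of the tested heavy chains. The macrophage line commonly called RAW was derived from a BALB/c mouse, whereas GRCm38 is the genome of C57BL/6, and class I genes differ between these strains in sequence and number. How much this moved reads between rows was not tested. The H2-T24, H2-T23 and H2-T22 genes also overlap the antisense gene A930015D03Rik, B2m overlaps Patl2 and Tapbpl overlaps Vamp1 on the other strand. The libraries were stranded, per the labels, but use of strand in quantification is not stated.

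**Figure D3:**
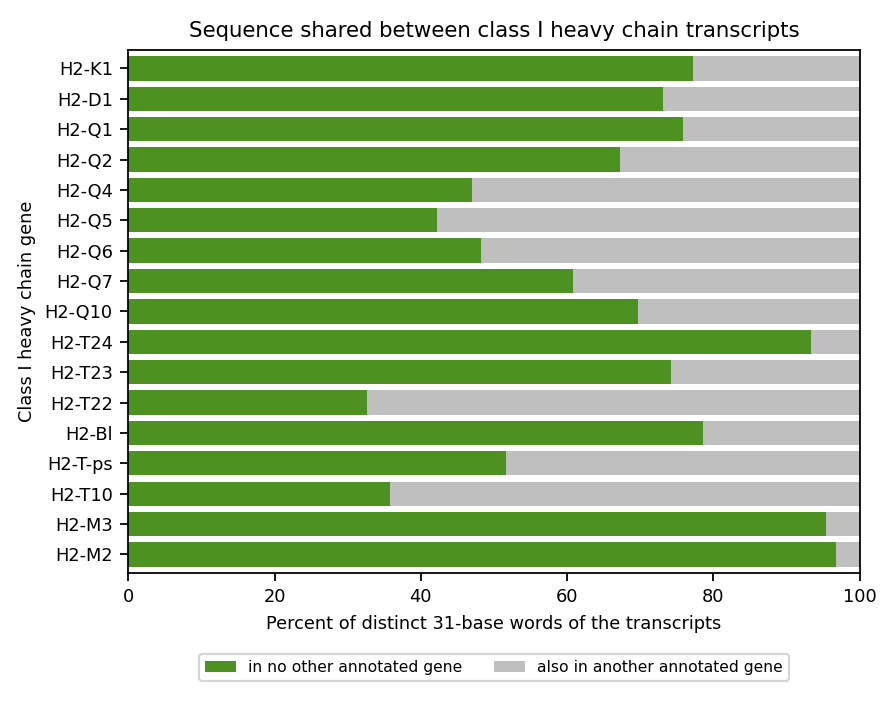
Percent of the distinct 31-base words in the annotated transcripts of each of the 17 tested class I heavy chain genes that occur in no other annotated gene (green) or also in another gene (grey), in GENCODE M21. H2-T22 and H2-T10 have the smallest own share, and H2-M2, H2-M3 and H2-T24 the largest.

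H2-M3 and H2-M2 went apart from the other heavy chains. H2-M3 shows peptides that start with N-formyl methionine, as bacterial and mitochondrial proteins do. H2-M3 was at 34.0, 40.7 and 36.7 TPM (shGIV) and 46.1 TPM (shC) with LPS, against 73.0, 71.1 and 73.1 TPM (shGIV) and 51.9 and 58.7 TPM (shC) without. Without LPS each shGIV library lay above each shC library, and with LPS each lay below the shC library. H2-M3 fell in shGIV cells, with a log2 change of -0.95 ± 0.08 (SE, limma adjusted p = 1.3e-05), and was at -0.26 ± 0.12 in shC cells (adjusted p = 0.0955, or 0.0484 without replicate 1 of the shC cells without LPS). The difference between these responses was -0.69 ± 0.14 (95% interval -1.02 to -0.36, adjusted p = 0.0878), which did not pass over all genes, and the shGIV minus shC differences were -0.31 ± 0.11 with LPS (adjusted p = 0.156) and 0.38 ± 0.09 without (adjusted p = 0.114).

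H2-M2 was at 4.12, 4.69 and 5.08 TPM (shGIV) and 9.93 TPM (shC) with LPS, against 1.02, 1.11 and 1.24 TPM (shGIV) and 0.942 and 0.796 TPM (shC) without. H2-M2 (ENSMUSG00000016283, GRCm38 chromosome 17, 37480851 to 37483552, minus strand) is a class Ib gene with few near copies. It rose with LPS in both lines, by 1.41 ± 0.11 in shGIV cells (limma adjusted p = 9.64e-06) and 2.55 ± 0.17 in shC cells (adjusted p = 9.74e-06), and each shGIV library with LPS lay at about the same low level, under the lone shC library. With LPS it was lower in shGIV cells, with a shGIV minus shC difference of -0.96 ± 0.16 (95% interval -1.32 to -0.60, adjusted p = 0.0169). This rests on 1 shC library, and with the set number as a replicate block the difference was -0.96 with an adjusted p = 0.0850. Quantile normalization gave -0.79 (adjusted p = 0.0507) and a fit of only the 2 groups compared gave an adjusted p = 0.0754, and neither passed. The difference between the LPS responses was -1.14 ± 0.20 (adjusted p = 0.0737), and the lines differed by 0.18 without LPS (adjusted p = 0.61).

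The inducible proteasome subunits replace the standard catalytic subunits and change which peptides are cut. All 5 tested rows of this group, which includes the PA28 activator, rose in both lines, with medians of 1.80 and 1.73 log2 units. Among all genes 15.8% (shGIV) and 14.8% (shC) were higher. Psmb8 was at 394, 417 and 392 TPM (shGIV) and 357 TPM (shC) with LPS, against 148, 150.0 and 132 TPM (shGIV) and 129.9 and 154 TPM (shC) without. Psmb9 was at 133, 151 and 134 TPM (shGIV) and 109 TPM (shC) with LPS, against 36.4, 33.7 and 30.6 TPM (shGIV) and 29.1 and 36.9 TPM (shC) without. Psmb10 was at 347, 400.2 and 366 TPM (shGIV) and 327 TPM (shC) with LPS, against 54.4, 54.6 and 52.7 TPM (shGIV) and 47.3 and 67.3 TPM (shC) without. Libraries with LPS and without LPS did not overlap for any of these. Psmb10 (also called MECL-1) had the largest change, 2.76 ± 0.12 in shGIV cells and 2.51 ± 0.18 in shC cells, followed by Psmb9 (LMP2) with 2.02 ± 0.10 in shGIV cells and 1.71 ± 0.16 in shC cells and Psmb8 (LMP7) with 1.48 ± 0.08 in shGIV cells and 1.33 ± 0.12 in shC cells. Psme1 and Psme2 encode the alpha and beta subunits of PA28, a cap that opens the proteasome. Psme1 was at 384, 375 and 382 TPM (shGIV) and 366 TPM (shC) with LPS, against 109.6, 106 and 111 TPM (shGIV) and 101 and 119 TPM (shC) without. Psme2 was at 724, 723 and 707 TPM (shGIV) and 739 TPM (shC) with LPS, against 213, 211 and 193 TPM (shGIV) and 184 and 215 TPM (shC) without. They changed side by side, by 1.79 ± 0.07 in shGIV cells and 1.73 ± 0.10 in shC cells for Psme1 and by 1.80 ± 0.07 in shGIV cells and 1.88 ± 0.11 in shC cells for Psme2, and Psme1 stayed at 0.496 to 0.578 times Psme2 in all 9 libraries. Psme2 shares 33.5% of its 31-base words with the copy Psme2b.

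The standard subunits that these replace changed unequally. Psmb5, the counterpart of Psmb8, was at a mean of 141 TPM (shGIV) and 149 TPM (shC) with LPS and 138 TPM (shGIV) and 137 TPM (shC) without, and passed in neither line. Psmb6 rose by 0.45 in shGIV and 0.73 in shC cells and Psmb7 by 0.13 and 0.21, and with TMM scaling all 5 of the listed standard subunits and alternative regulators rose in both lines. The ratio of Psmb8 to Psmb5 within a library was 2.77, 2.98 and 2.77 (shGIV) and 2.40 (shC) with LPS, against 1.11, 1.13 and 0.900 (shGIV) and 1.02 and 1.05 (shC) without. The ratio of Psmb10 to Psmb7 was 1.80, 1.97 and 1.83 (shGIV) and 1.57 (shC) with LPS, against 0.309, 0.293 and 0.288 (shGIV) and 0.266 and 0.366 (shC) without. Psmb9 remained the minor partner of its pair, with a ratio to Psmb6 of 0.260, 0.253 and 0.264 (shGIV) and 0.172 (shC) with LPS and of 0.0931, 0.0837 and 0.0800 (shGIV) and 0.0854 and 0.0863 (shC) without. Each ratio was higher in all 4 libraries with LPS than in all 5 without, and with LPS each was higher in all 3 shGIV libraries than in the shC library, a difference that was not tested. With LPS 15.8% (shGIV) and 14.8% (shC) of all genes were higher and 59.7% and 44.1% lower. Among 11 other subunits of the core particle 6 rose and 1 fell in shGIV cells and 6 rose in shC cells. Psma6 led them at 1.62 and 1.54, and the median of the 11 was 0.27 and 0.32. These counts hang on the scaling, with 11 and 10 higher under TMM scaling and 5 and 4 higher with 2 and 3 lower under quantile normalization.

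**Figure D4:**
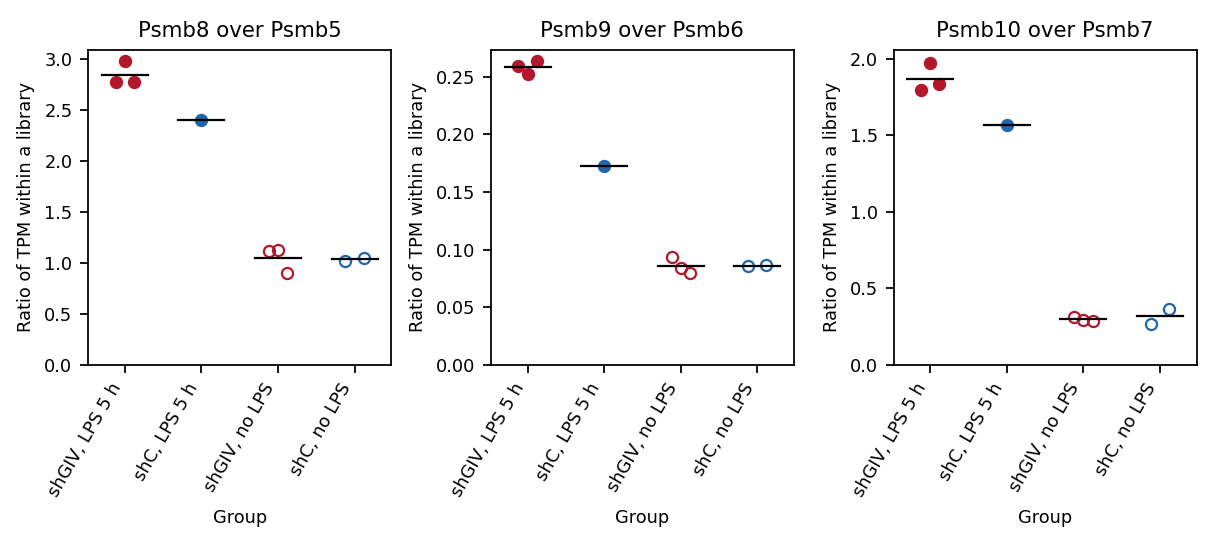
TPM of each inducible proteasome subunit divided by that of its standard counterpart within each library (points), by group, with group means as lines (3, 1, 3 and 2 libraries). All 3 ratios are higher in the libraries with LPS (filled) than in those without (open), for example 2.40 to 2.98 against 0.900 to 1.13 for Psmb8 over Psmb5.

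All 5 genes of peptide transport, trimming and loading rose in both lines, with medians of 2.04 and 2.20 log2 units. The share of all genes that were higher was 15.8% (shGIV) and 14.8% (shC). Tap1 and Tap2 encode the subunits of the TAP transporter. Tap1 was at 219.7, 229.8 and 199 TPM (shGIV) and 217 TPM (shC) with LPS, against 19.5, 18.8 and 18.4 TPM (shGIV) and 18.3 and 22.7 TPM (shC) without. Tap2 was at 99.0, 109 and 92.4 TPM (shGIV) and 106 TPM (shC) with LPS, against 20.4, 19.9 and 19.6 TPM (shGIV) and 18.4 and 22.3 TPM (shC) without. Without LPS the subunits were nearly equal, with Tap1 at 0.939 to 0.955 (shGIV) and 0.996 and 1.02 (shC) times Tap2, whereas with LPS Tap1 stood at 2.10 to 2.22 (shGIV) and 2.05 (shC) times Tap2. Tap1 (ENSMUSG00000037321, GRCm38 chromosome 17, 34187553 to 34197225, plus strand) had the largest change of the 35 members, 3.45 ± 0.09 in shGIV cells and 3.35 ± 0.13 in shC cells (limma adjusted p = 3.11e-08 and 8.7e-07), and Tap2 changed by 2.27 ± 0.09 in shGIV cells and 2.33 ± 0.13 in shC cells. Psmb9, which shares the Tap1 promoter window shown above, changed by less than Tap1 in both lines. The gene spans in GENCODE M21 differ from the RefSeq start sites, and there the 2 genes overlap by 212 bases on opposite strands. Tapbp encodes tapasin, which holds the empty heavy chain at the transporter, and Tapbpl encodes its relative TAPBPR, which edits the bound peptides. Tapbp was at 569, 616 and 538 TPM (shGIV) and 625 TPM (shC) with LPS, against 134, 142 and 139.6 TPM (shGIV) and 115 and 160.4 TPM (shC) without. Tapbpl was at 13.8, 16.3 and 14.6 TPM (shGIV) and 16.5 TPM (shC) with LPS, against 4.05, 4.92 and 4.92 TPM (shGIV) and 4.62 and 5.75 TPM (shC) without. Both rose without overlap between libraries, by 2.04 ± 0.12 in shGIV cells and 2.19 ± 0.18 in shC cells for Tapbp and by 1.50 ± 0.11 in shGIV cells and 1.51 ± 0.16 in shC cells for Tapbpl. Erap1 was at 48.4, 49.0 and 52.4 TPM (shGIV) and 53.0 TPM (shC) with LPS, against 28.4, 33.9 and 27.2 TPM (shGIV) and 38.7 and 32.8 TPM (shC) without, the smallest change of this group at 0.73 ± 0.10 in shGIV cells and 0.56 ± 0.15 in shC cells (adjusted p = 0.00022 and 0.0125), and the shC change was 0.44 with an adjusted p = 0.0940 with the set number as a replicate block. Of 6 listed genes of heavy chain folding 5 fell in shGIV cells and 4 in shC cells with none higher, where 59.7% and 44.1% of all genes were lower. Among them were Uggt1 at -1.10 and -0.71 and Ganab at -0.83 and -0.57. With LPS the shGIV minus shC difference of Uggt1 was -0.46 (mean 16.8 against 23.45 TPM), which rests on 1 shC library. Calreticulin (Calr) fell too, at -0.77 and -0.48, as did Pdia3, the thiol enzyme of the loading complex, at -0.80 and -0.60. The chaperone Hspa5 was at 0.10 and 0.19 and did not pass. Under TMM scaling 4 fell and 1 rose in shGIV cells, and 1 fell and 2 rose in shC cells.

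On the class II side the chains were close to absent, and of 4 tested accessory genes 1 (Cd74) rose and 3 fell in shGIV cells, while none passed in shC cells. With TMM scaling 1 of these rose and none fell in each line. Of all genes 15.8% were higher and 59.7% lower in shGIV cells, and 14.8% and 44.1% in shC cells. H2-Aa, H2-Ab1, H2-Eb1, H2-Eb2 and H2-Ea-ps were at 0.375 TPM at most in each of the 9 libraries. Cd74 encodes the invariant chain that guards the class II groove. Cd74 was at 143, 162 and 162 TPM (shGIV) and 122 TPM (shC) with LPS, against 123, 129 and 130.0 TPM (shGIV) and 110.2 and 126 TPM (shC) without. It was thus as abundant as some class I genes, and its shGIV libraries with LPS lay above all others. Cd74 changed by 0.29 ± 0.07 in shGIV cells (limma adjusted p = 0.00829) and was at 0.05 ± 0.11 in shC cells (adjusted p = 0.721), where TMM scaling gave 0.49 and a call (adjusted p = 0.00987). The shGIV minus shC difference with LPS was 0.34 ± 0.11 (adjusted p = 0.108), or 0.50 with TMM scaling and 0.45 with quantile normalization, where it passed (adjusted p = 0.0491 and 0.0426).

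H2-DM removes the invariant chain fragment from class II molecules. H2-DMa was at 6.36, 7.50 and 5.88 TPM (shGIV) and 9.54 TPM (shC) with LPS, against 9.20, 8.72 and 9.39 TPM (shGIV) and 11.5 and 13.4 TPM (shC) without. The shGIV libraries lay below the shC libraries at both times. H2-DMa changed by -0.42 ± 0.10 with LPS in shGIV cells (limma adjusted p = 0.00494) and was at -0.35 ± 0.15 in shC cells (adjusted p = 0.0739, or 0.0446 without replicate 2 of the shGIV cells with LPS), but this is less than the shift of all genes, and the shGIV value turned to 0.10 with TMM scaling and 0.25 with quantile normalization (adjusted p = 0.0289). The beta chains were near the limit of the table, and neither passes the filter on the libraries with LPS alone. H2-DMb1 was at 0.0658, 0.0298 and 0.0755 TPM (shGIV) and 1.01 TPM (shC) with LPS, against 0.291, 0.560 and 0.581 TPM (shGIV) and 1.27 and 1.19 TPM (shC) without. H2-DMb2 was at 0.604, 0.625 and 0.288 TPM (shGIV) and 1.79 TPM (shC) with LPS, against 2.88, 0.673 and 2.39 TPM (shGIV) and 2.70 and 2.78 TPM (shC) without. H2-DMb1 was lower in every shGIV library than in every shC library of the same time, and H2-DMb2 was low in 1 shGIV library without LPS. Both fell in shGIV cells with LPS, at -0.48 and -0.90 (adjusted p = 0.0288 and 0.0265), but TMM scaling ended both calls (adjusted p = 0.0649 and 0.0866). H2-DMb1 also lost its call without replicate 1, 2 or 3 of the shGIV cells with LPS or replicate 2 or 3 of those without (adjusted p = 0.0501 to 0.0828), and H2-DMb2 without replicate 1 or 3 of the shGIV cells with LPS or of those without (0.0503 to 0.0852). These genes share 31.4% and 29.7% of their 31-base words with each other. With the set number as a replicate block H2-DMb1 had an adjusted p = 0.0620 in this comparison. The shGIV minus shC differences of H2-DMa, H2-DMb1 and H2-DMb2 were -0.48, -0.93 and -0.90 with LPS (adjusted p = 0.0945, 0.0638 and 0.274) and -0.41, -0.60 and -0.42 without (adjusted p = 0.174, 0.239 and 0.693), and none passed.

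Genes that serve class II outside the rule were also listed. Of 7 rows of endosomal processing and class II turnover 5 were tested. The protease Ctsl rose by 1.68 in shGIV and 1.28 in shC cells and Cd83, which keeps class II on the surface, by 3.43 and 3.63, while the protease Lgmn fell by 1.21 and 1.09 and the thiol reductase Ifi30 by 1.54 and 1.16. The comparison of the lines with LPS rests on 1 shC library here too. Between the lines the protease Ctss, which cuts the invariant chain, was lower in shGIV cells with LPS (-0.47, mean 1809 against 2499 TPM) and without (-0.35, mean 2194 against 2795 TPM), Ctsl was lower without LPS (-0.67), and Lgmn with LPS (-0.43). These were 2 of 5 called at each time, both lower (1 of 5 with LPS under TMM scaling), against 5.27% of all genes with LPS and 1.22% without. March1, a ligase that removes class II from the surface, was at a mean of at most 0.178 TPM in each group. Of 8 rows of the class II transcription complex, 2 of them rows of Nfya with identical values, 7 fell in shGIV cells and 4 in shC cells, against 59.7% and 44.1% of all genes, led by Rfxap at -1.32 and -1.27, but 2 and 3 rose and 1 and 1 fell under TMM scaling.

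H2-Ke6 carries an MHC name by position only and encodes a steroid dehydrogenase. H2-Ke6 was at 15.7, 18.4 and 17.3 TPM (shGIV) and 16.9 TPM (shC) with LPS, against 36.2, 41.6 and 36.4 TPM (shGIV) and 29.3 and 32.0 TPM (shC) without. It fell without overlap, with changes of -1.10 ± 0.08 in shGIV cells and -0.82 ± 0.13 in shC cells, and 76.1% of its 31-base words are also in the overlapping gene Gm20427.

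Among 14 interferon and NF-kB regulators of MHC genes 11 rose and 1 fell in each line, where 15.8% (shGIV) and 14.8% (shC) of all genes were higher and 59.7% and 44.1% lower. Irf7 rose by 4.59 in shGIV and 4.24 in shC cells, Ifnb1, the gene of interferon beta, by 4.57 and 3.88, and Stat2 by 3.05 and 3.19. Ifngr1, a chain of the interferon gamma receptor, was the gene that fell (-1.45 and -1.69). Ifnb1 was at a mean of 0.154 TPM (shGIV) and 0.0411 TPM (shC) without LPS. It passed the filter only through libraries with LPS, so its call as a rise is no separate support. The size of its change hangs on the 1 added to each TPM value. The comparison of the lines with LPS rests on 1 shC library. Between the lines 1 of the 14 passed with LPS, where 5.27% of all genes passed, with Ifnb1 higher in shGIV cells with LPS by 0.84 (mean 26.4 against 14.3 TPM).

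The effect of GIV depletion on these genes was tested at each time, in comparisons that share libraries with each other and with the LPS responses. Without LPS limma called none of the 35 members (1.22% of all genes passed, 0.489% higher and 0.729% lower), and 6 had an unadjusted p under 0.05. With LPS 1 was called, H2-M2, where 5.27% of all genes passed (0.89% higher and 4.38% lower) and 5 members had an unadjusted p under 0.05. The difference between the LPS responses was called for none, where 0.226% of all genes passed (0.0948% higher and 0.131% lower), and 3 members had an unadjusted p under 0.05 (H2-M2, H2-M3 and H2-T22). The median difference of the members between shGIV and shC cells was -0.02 with LPS and -0.02 without, next to -0.12 and 0.02 for all genes. A p that misses the threshold does not show equality, so the intervals are given: of the 29 tested genes of the class I side, from Nlrc5 to the heavy chains, 28 with LPS and all 29 without had a 95% interval of the difference that lay within 1 log2 unit of 0, and for the difference between the LPS responses it was 27 of 29. A bound of 1 log2 unit is loose, being wider than the LPS changes of H2-K1 (0.78 in each line) and B2m (0.81 in shGIV and 0.73 in shC cells). The median distance from an estimate to the end of its interval was 0.29 log2 units with LPS and 0.23 without.

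**Figure D5:**
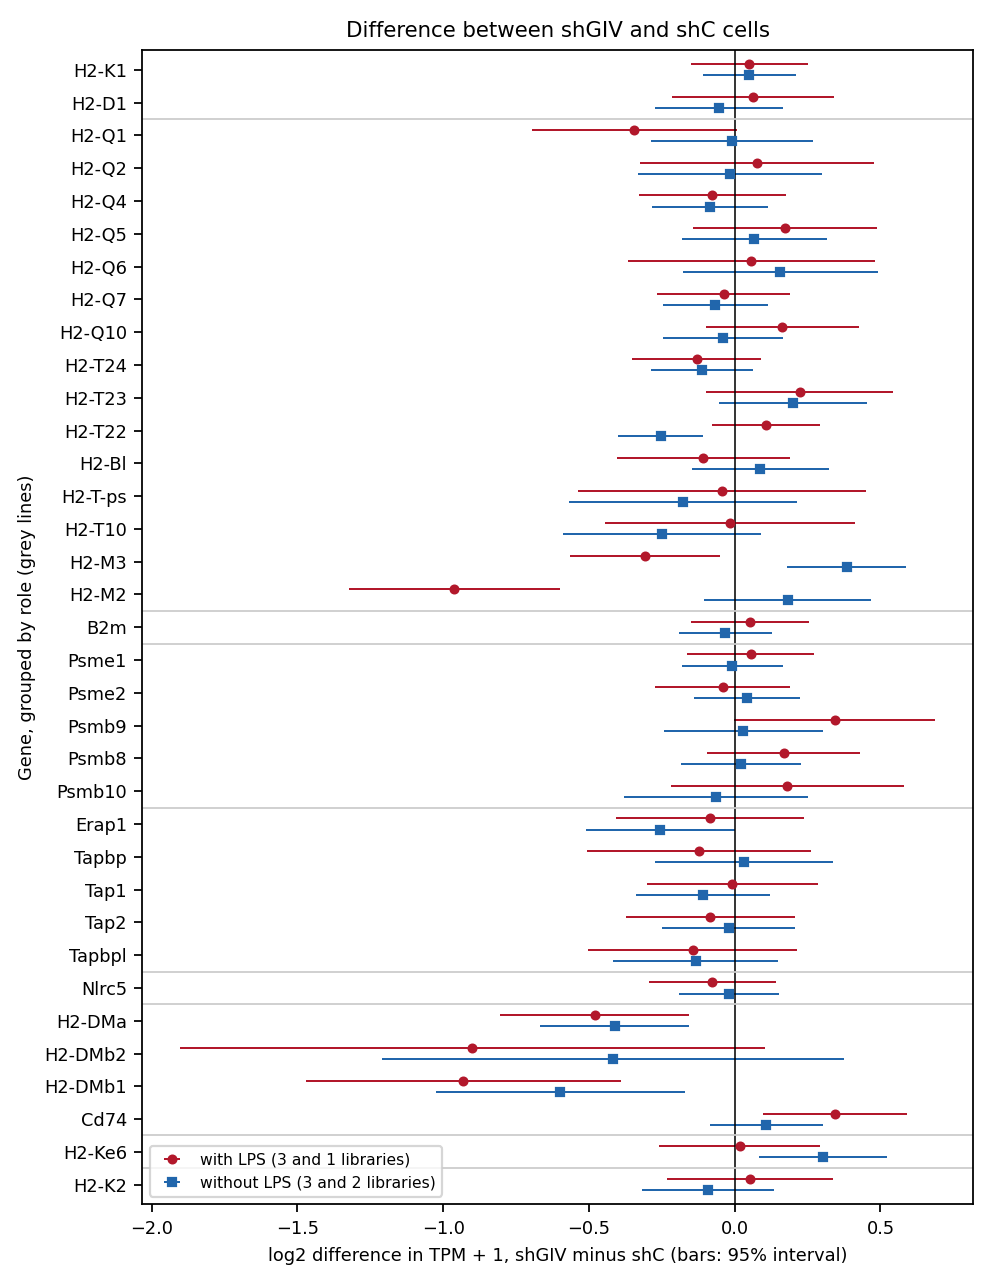
Log2 difference in TPM + 1 between shGIV and shC cells for the 35 genes with LPS (circles) and without (squares), with 95% intervals from limma. Most intervals cross 0, and the point farthest from 0 is H2-M2 with LPS at -0.96.

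H2-T22 was the third member with an unadjusted p under 0.05 for the difference between the LPS responses. Its levels given above were lower in all 3 shGIV libraries than in both shC libraries without LPS (-0.25, 95% interval -0.40 to -0.11, adjusted p = 0.144), and with LPS all 3 shGIV libraries lay above the shC library (0.11, -0.08 to 0.29). The difference of the responses was 0.36 ± 0.10 (adjusted p = 0.151). Psmb9 with LPS was the class I processing gene with the largest positive difference, 0.34 ± 0.15 (interval -0.00170 to 0.69, adjusted p = 0.228), with all 3 shGIV libraries above the shC library.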

How the data were processed

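The labels list 11 RNA samples, of which 10 have a column. Per the labels' protocols, ribosomal RNA was removed and stranded libraries were read from both ends, 100 bases each. The authors made the deposited log2(TPM + 1) values with kallisto 0.45.0 on GRCm38, per the submitters' processing notes. The annotation release is not given in the sources used here, and TPM keep no depth. Counting precision is therefore unknown.

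One limma 3.58.1 model (R 4.3.3) of 4 groups and 9 libraries was fitted to 13711 genes that reach a log2(TPM + 1) value of 1 in 2 or more libraries, with a mean-variance trend and 5 residual degrees of freedom. The threshold was 0.05 after Benjamini-Hochberg adjustment, separately for 5 comparisons. The fit was tested on simulated data. Members, gene lists and motifs were chosen with earlier results of these data known. Named genes are the members with a group mean of at least 1, and members with a group mean of at least 3 are given with every library. At most 4 of the called genes with the largest change are named per list, and other genes named from lists were chosen after their values were seen. Some listed genes are not reported here by name.

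The set number links the shGIV libraries weakly: deviations of same-numbered libraries with and without LPS had correlations of 0.179, 0.205 and 0.186 over 9481 genes. In shC cells without LPS, set 1 minus set 3 had correlations of 0.106 and 0.109 with the same difference in shGIV cells with and without LPS. The main model holds no term for the set number, so its p-values ignore this link, and a block for it is among the alternatives. Genes, positions and shared 31-base words came from GENCODE M21 (GRCm38), which held 59 of the 60 rows, and promoters from RefSeq. Words were counted on either strand. Alternatives were all 10 libraries, a block for the set number, no filter, a stricter filter, a pseudocount of 0.1, TMM (trims of 30% and 5%) and quantile scaling, eBayes without trend or robust, only the 2 groups compared, and leaving out each library. Tables and figures used Python 3.11.15, pandas 2.3.3, numpy 2.4.6 and matplotlib 3.10.9.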

Additional observations from a re-analysis of the deposited data

How the results depend on the processing

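The LPS response in shGIV cells had 35 members called and kept a count within 1.5 times of this under each alternative except with all 10 libraries (7), and leaving out 1 library gave 33 to 35. The response in shC cells had 29, against 3 with all 10 libraries and 29 to 30 with a library left out. Replicate 2 of the shC cells without LPS, whose coding genes are low as a whole, is the library that makes this difference, and H2-Ke6 in shC cells then turned to 0.14. Depletion without LPS called 0, and 1 (H2-M3) with quantile normalization. Depletion with LPS called 1. It called 0 with all 10 libraries, the set number as a replicate block, the stricter filter or only the 2 groups compared, and 2 with no filter, a pseudocount of 0.1 or eBayes without trend (H2-M2 and H2-DMb1), TMM scaling (H2-M2 and Cd74) or quantile normalization (H2-DMb1 and Cd74). Leaving out a library gave 1 throughout, and no value could be had without the lone shC library with LPS. The difference between the responses called 0 under every alternative that gave a value. H2-DMa in shGIV cells turned to 0.10 with TMM scaling and 0.25 with quantile normalization. With the replicate block 34 members passed in shGIV cells and 28 in shC cells, and it ended the calls of H2-M2, Erap1 and H2-DMb1 named above and no other. The causes were not tested. Of 3156 values of single genes under alternatives 72 lost their call and kept their direction, 54 of them with all 10 libraries, and 12 gained one. Of the 3 that reversed, H2-DMa with TMM scaling and H2-Ke6 also lost their call. A further 182 values called in neither fit changed sign. Depth is unknown, so it cannot be said how far it limits the low genes.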

Other observations

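Class I-like genes outside the rule did not rise with the class I genes. Mr1 was at a mean of 0.54 TPM (shGIV) and 0.65 TPM (shC) with LPS, against 1.53 TPM (shGIV) and 1.99 TPM (shC) without. It was let into the test through its higher levels without LPS, which bears on its falls counted below. Of 7 tested rows of the list (Mr1, Fcgrt, Hfe, Raet1d, Raet1e and 2 rows of Ulbp1) 7 fell in shGIV cells and 5 in shC cells, where 59.7% and 44.1% of all genes were lower. The rows of Ulbp1 hold identical values and count as 2 in each number, and under TMM scaling 2 rows rose in shGIV cells and 1 in shC cells. Ulbp1, a ligand of the activating receptor NKG2D, was at a mean of 3.63 TPM (shGIV) and 4.62 TPM (shC) with LPS against 17.7 TPM (shGIV) and 21.95 TPM (shC) without in each of its 2 rows, a change of -2.00 and -2.03 log2 units. Raet1d, another ligand of this receptor, was lower in shGIV cells with LPS by 0.53 log2 units (mean 33.5 against 48.6 TPM), a call that rests on 1 shC library and that TMM scaling and quantile normalization end.

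Of 7 listed peptidases 3 rose in both lines, where 15.8% (shGIV) and 14.8% (shC) of all genes were higher, and 2 fell in shGIV cells and 1 in shC cells, where 59.7% and 44.1% were lower. Those that rose were Lnpep at 1.12 and 1.28, Lap3 at 0.91 and 0.65 and Npepps at 0.39 and 0.42, while Thop1, which degrades peptides, fell by 1.09 and 0.80, and Nrd1 fell by 0.55 in shGIV cells and was at -0.25 in shC cells.

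In the library left out, replicate 2 of the shC cells without LPS, the 60 rows summed to 255 TPM, B2m was at 44.4 TPM and stood at 0.362 times the heavy chain sum, against 1.21 to 1.88 in the other 9 libraries.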
